A study of Rattus norvegicus with 2 samples.

Results

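The 10 genes described here are the Krüppel-like factor (Klf) genes Klf2, Klf3, Klf4, Klf5, Klf6, Klf7, Klf10, Klf11, Klf13 and Klf15, which were read by 17 of the 45598 probes on the array and make up 10 of its 36174 gene names. In rat cervical lymph nodes, Klf5 was 5.44-fold, Klf4 4.13-fold and Klf10 2.31-fold higher on the array of restrained rats than on the control array, whereas Klf2 was 2.07-fold lower. The genes were found as all noncontrol probes that carry one of these names on both arrays. The names were chosen by the differences in signal between these same arrays, already known, so the values below describe the genes and nothing was tested. The 2 arrays were 1 of the C group (control) and 1 of the RS group (restraint stress), both with total RNA of cervical lymph nodes from male Sprague-Dawley rats aged 10 to 12 weeks. The study's methods describe restraint on a board, lying on the back, and its microarray comparison concerns its earliest restraint group, but the labels give no restraint time. How many rats gave the RNA of an array was not given in the sources used here. With 1 array per group there was no spread between animals, so no p-value was computed, and precision is limited throughout by having 1 array a group. The slide and the scan were the same for both.

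Klf proteins are transcription factors that carry a block of C2H2 zinc fingers at their carboxyl end, in which paired cysteines and histidines hold a zinc ion, and with these fingers they bind CACCC and GC-rich DNA. The family is commonly divided into members that mostly activate genes (Klf1, Klf2, Klf4, Klf5, Klf6 and Klf7), members that repress through the corepressor CtBP (Klf3, Klf8 and Klf12) and members that repress through Sin3a (Klf9, Klf10, Klf11, Klf13, Klf14 and Klf16), with Klf15 outside these groups. In lymphoid tissue, Klf2 is best known for holding naive T cells in a resting and circulating state and, with Klf4, for the quiescent state of the endothelium under blood flow.

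Of the 17 probes, each 60 bases long, 4 read an open frame that holds a pair of zinc-binding codons, and these are shown because they lie in the part of the messenger RNA that encodes the fingers the family shares. Capitals mark the codons of the paired cysteines (Klf2, Klf7) or of the paired histidines (Klf5, Klf6). Positions are those of the array design on build rn4. The Klf2 probe lies at chr16:17942544-17942603 on the reverse strand, the Klf5 probe at chr15:83107766-83116603 on the forward strand, the Klf6 probe at chr17:75579782-75579841 on the reverse strand and the Klf7 probe at chr9:62737502-62737561 on the reverse strand. The Klf5 probe covers a span of 8838 bases and therefore reads across a splice junction.
Klf2: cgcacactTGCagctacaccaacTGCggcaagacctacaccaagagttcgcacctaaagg
Klf5: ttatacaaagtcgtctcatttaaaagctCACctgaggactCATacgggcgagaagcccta
Klf6: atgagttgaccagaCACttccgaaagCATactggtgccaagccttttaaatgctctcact
Klf7: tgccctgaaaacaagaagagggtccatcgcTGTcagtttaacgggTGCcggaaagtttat
Between any pair of these probes, the longest run of identical bases was 5 or 6 bases. Some probes hold the cysteine codons and others the histidine codons, so a pair need not cover matching parts of a finger. The runs therefore do not show how far matching stretches of these genes differ. The GC content of all 17 probes ran from 35.0% to 55.0%, with a median of 40.0%.

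Values are given as intensity in C and in RS, that is, the spot signals of each array after background subtraction by the scanner software, in arbitrary units. Differences are on the log2 scale, RS minus C, after the 75th percentile of each array was subtracted (an intensity of 189 in C and 176 in RS). The error beside a difference is the spot error: the scanner software gives an error for each spot, and those of the C and RS spots were combined, so that it leaves out any difference between rats. A gene with several probes is represented by the one with the highest mean signal. In the plot of every probe on both arrays, 15 of the 17 probes were well above background on both arrays (the limit is the call of the scanner software) and the other two on the RS array only, and all 10 genes were represented by a probe of the first kind.

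**Figure D1:**
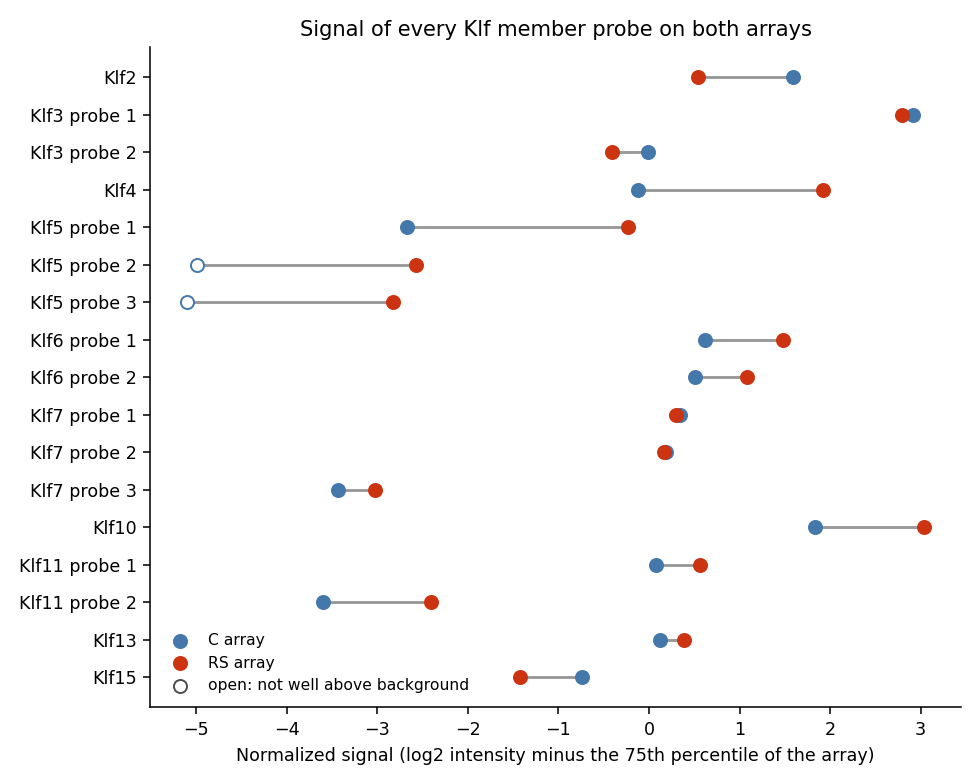
Signal of each of the 17 Klf probes as log2 intensity minus the 75th percentile of its array (x axis), with the C array in blue, the RS array in red and a gray line joining them; an open circle marks a probe that was not well above background. The longest lines belong to Klf4 and to the 3 Klf5 probes, with RS to the right, and the RS circle lies to the left for Klf2, Klf15, both Klf3 probes and, by little, 2 Klf7 probes; positions of different probes are not comparable.

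At 2-fold, 3 of the 10 genes were higher (Klf4, Klf5 and Klf10), 1 was lower (Klf2) and 6 were under the threshold. Of all 21096 genes screened, 3.46% were 2-fold or more higher and 4.28% were 2-fold or more lower. Since the genes were picked with these values known, nothing is read from the comparison of the shares. The median difference of the 10 genes was 0.37, beside 0.02 over all genes screened, with 6 genes above 0 and 4 below. For 7 genes the 95% interval given by the spot error left out 0, and for Klf3, Klf7 and Klf13 it held 0. At 1.5-fold, Klf6 joined the higher genes and Klf15 the lower ones, where 7.97% of all genes were higher and 8.46% lower. In whole tissue, fewer cells of a type and less RNA per cell cannot be told apart.

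Among the genes of the activator group, 2 of 5 were higher and 1 was lower. Klf5, a factor of proliferating epithelium, smooth muscle and early fat cell formation, gave an intensity of 29.5 in C and 150.0 in RS. The difference was 2.44 (spot error 0.23), or 5.44-fold. Only 111 of all genes screened were as high, 0.526% of them. A second Klf5 probe was below the background limit in C, at 5.93, and read 29.6 in RS. The splice-junction probe shown above was likewise below this limit in C, at 5.50, and read 24.8 in RS. Against the lowest signal counted as well above background, these probes were at least 3.35-fold and at least 2.81-fold higher on the RS array, so that all 3 Klf5 probes lay in one direction. The C signal was dim. The normexp background correction models signal and background together and adds an offset to each signal before the log is taken. The offset makes differences of dim probes smaller by construction. With this correction the Klf5 difference was 1.22, and the part of the offset in this lower value was not tested.

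Klf4, known from endothelium, monocytes and differentiating epithelium and as one of the reprogramming factors, was read by 1 probe spotted at 2 places on each array. These spots gave 168 and 178 in C and 682 and 652 in RS. The 2 pairs did not overlap, and spots of the same array differed far less than the arrays did. Spots of an array read the same RNA, so this covers spot noise only and not the spread between rats. The mean intensity was 173 in C and 667 in RS, a difference of 2.05 (spot error 0.14), or 4.13-fold. Among all genes screened, 169 were as high, 0.802%.

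Klf2, the factor of resting T cells and of endothelium under flow, lay in the opposite direction. Its single probe, shown above with the finger cysteines in capitals, gave 569 in C and 256 in RS. The difference was -1.05 (spot error 0.20), or 2.07-fold lower, and 847 of all genes screened were as low, 4.02%. Klf2 was therefore just past the 2-fold threshold. With the normexp background correction it was at -0.91, under 2-fold, where the added offset draws differences toward 0 by construction. Klf2 and Klf4 overlap in function in the endothelium, and here their 95% spot error intervals lay far apart: -1.45 to -0.65 for Klf2 and 1.76 to 2.33 for Klf4.

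Klf6, a widely expressed factor that responds early to injury, was read by 2 probes. The one that represents the gene gave 290.2 in C and 491 in RS, a difference of 0.86 (spot error 0.20), or 1.81-fold. The finger-coding probe shown above gave 269 in C and 375 in RS, a difference of 0.58. Both Klf6 probes were higher on the RS array and under 2-fold, and Klf6 was the gene nearest to the threshold from below.

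Klf7, known from neurons and blood progenitors, differed little in any of its 3 probes. The first gave 239 in C and 217 in RS, and the finger-coding probe shown above gave 215 in C and 198 in RS. Their differences were -0.04 and -0.02. The last gave 17.5 in C and 21.6 in RS, a difference of 0.40 with the largest spot error among the Klf7 probes, 0.30. Klf7 was the only one of the 5 genes with several probes whose probes differed in sign, each with a 95% spot error interval that held 0.

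**Figure D2:**
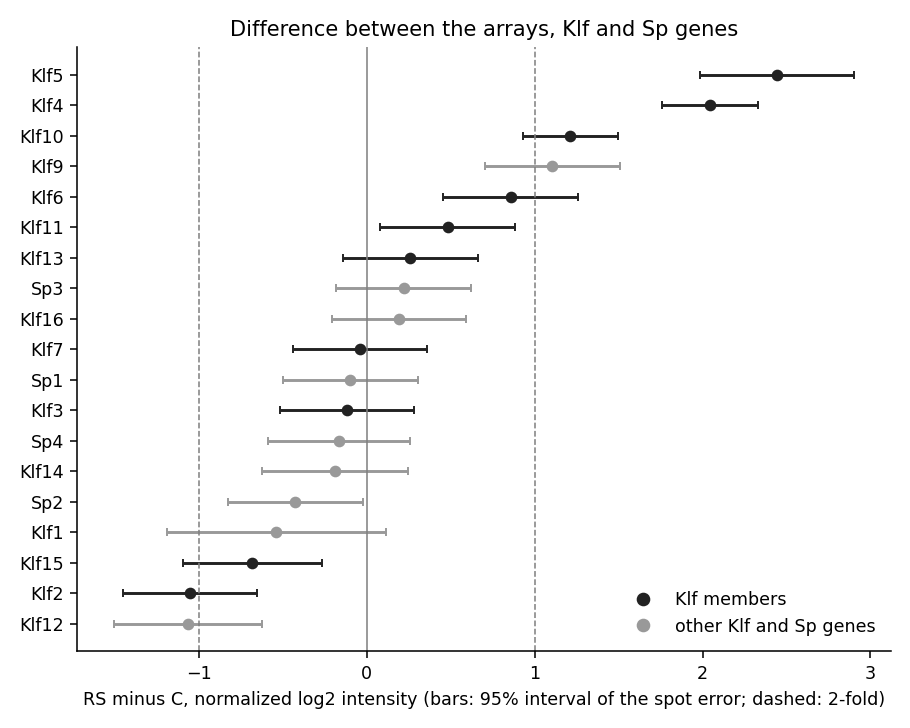
Difference between the arrays, RS minus C in normalized log2 intensity (x axis), for the 10 Klf genes described here (black) and 9 other Klf and Sp genes (gray); bars are 95% intervals of the spot error and dashed lines mark 2-fold. Klf5 and Klf4 stand apart at the top, and Klf2 and Klf12 lie at the bottom near -1.

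Klf3 belongs to the CtBP group and competes with activating Klf proteins for CACCC sites. Its representative probe gave 1422 in C and 1224 in RS, a difference of -0.12 (spot error 0.20). The other Klf3 probe gave 187 in C and 133 in RS, a difference of -0.39 (spot error 0.21). Both probes were below 0, and both 95% spot error intervals held 0.

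Among the Sin3a group, 1 of 3 genes was higher. Klf10, named for its early induction by transforming growth factor beta (TGF-beta), was read by 1 probe at 2 places on each array. The spots gave 657 and 686 in C and 1428 and 1475 in RS. Both RS spots lay above both C spots, which again covers spot noise only, and the mean intensity went from 671 to 1451. The difference was 1.21 (spot error 0.14), or 2.31-fold, and 523 of all genes screened were as high, 2.48%.

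Klf11, a close relative of Klf10 that also responds to TGF-beta, had probes that fell on both sides of the threshold. The representative probe gave 199.8 in C and 261 in RS, a difference of 0.48 (spot error 0.20). The other gave 15.6 in C and 33.3 in RS, a difference of 1.19 (spot error 0.31), or 2.29-fold. Both were higher on the RS array. The 95% spot error interval of the brighter probe, 0.08 to 0.88, lay under 2-fold, and that of the dimmer probe spanned the threshold. Whether Klf11 counts as 2-fold higher therefore rests on which probe is taken, and the unweighted mean of both was 0.84.

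Klf13, which drives the chemokine Ccl5 in activated T cells, was read by 1 probe, at 206 in C and 231 in RS. The difference was 0.26 (spot error 0.21), with a 95% interval that held 0. The Klf13 probe holds a run of 6 alternating A and G bases; when all probes with such runs were left out, the count of genes 2-fold or more lower went from 903 to 498, and Klf13 then had no value.

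Klf15, a factor of amino acid and glucose metabolism in liver, muscle and fat that glucocorticoids induce, was lower. Its single probe gave 113 in C and 65.9 in RS. The difference was -0.68 (spot error 0.21), or 1.61-fold lower, with a 95% spot error interval below 0 and short of the 2-fold threshold. With the normexp background correction it was -0.37.

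Ordered by their differences, the genes ran Klf5, Klf4, Klf10, Klf6, Klf11, Klf13, Klf7, Klf3, Klf15 and Klf2. Of the 9 pairs of neighbors in this order, only Klf4 and Klf10 had a gap, 0.83 with a combined spot error of 0.20, whose 95% interval left out 0. The order within the other pairs was thus not settled by the spots. Just past 2-fold were Klf10 at 1.21 and Klf2 at -1.05, and just under it were Klf6 at 0.86 and Klf15 at -0.68. The 95% spot error intervals of these 4 genes all spanned the threshold, and those of Klf4 and Klf5 lay wholly past it.

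**Figure D3:**
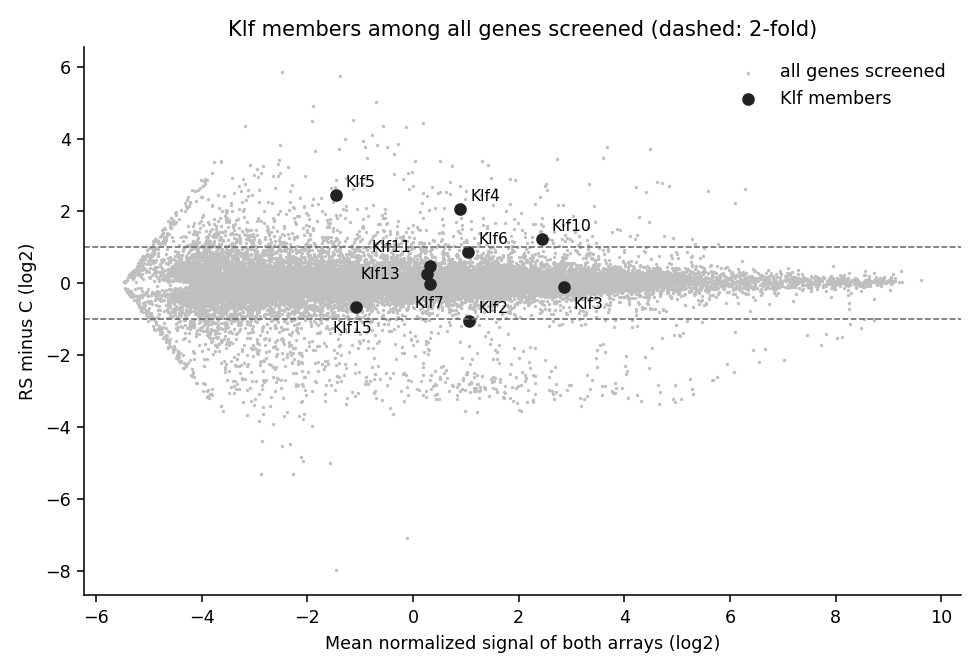
Difference between the arrays, RS minus C in log2 (y axis), against mean normalized signal (x axis) for all 21096 genes screened (gray) and the 10 Klf genes (black, named); genes well above background on 1 array only are drawn at their bound, and dashed lines mark 2-fold. Klf5 and Klf4 lie above most genes of like signal, whereas Klf3, Klf7 and Klf13 lie within the gray band.

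The rest of the family was read beside these genes. Of 15 other Klf and Sp genes on the array, 9 passed the background limit on 1 array or both, and of these 1 was 2-fold or more higher, 1 was lower and 7 were under the threshold, with a median difference of -0.16. The higher one was Klf9, a Sin3a-group factor that glucocorticoids induce, at 301 in C and 606 in RS. Its difference was 1.11 (spot error 0.20), or 2.15-fold. The lower one was Klf12, a CtBP-group repressor, at 74.9 in C and 33.5 in RS. Its difference was -1.06 (spot error 0.22), or 2.09-fold lower; a second Klf12 probe passed the background limit in C only and was at least 1.61-fold lower, and the last passed it on neither array. With the normexp background correction, Klf9 was at 0.93 and Klf12 at -0.50, both under 2-fold.

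Klf1, the erythroid member of the activator group, was at -0.54 (spot error 0.33), with 21.7 in C and 13.9 in RS. Klf14 was at -0.19, but a second Klf14 probe, at 2.20 in C and 16.1 in RS, passed the background limit in RS only and was at least 1.82-fold higher. Klf16 was at 0.19. The Sp genes, whose fingers resemble those of Klf proteins and bind GC boxes, were all under 2-fold: Sp1 was at -0.10, Sp2 at -0.43, Sp3 at 0.22 and Sp4 at -0.16. A second Sp1 probe was at -0.14, and a second Sp2 probe passed the background limit in RS only and was at least 1.14-fold higher. Klf8 and 5 Sp genes (Sp5 to Sp9) passed the background limit on neither array. Counting the whole family as measured, the activator group had 2 of 6 genes higher and 1 lower. The CtBP group had 1 of 2 lower, and the Sin3a group 2 of 6 higher. Beside these counts and those of the lists below, 3.46% of all genes screened were higher and 4.28% lower. The genes and lists were picked with earlier results of these data known, so nothing is read from comparing the counts with these shares.

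For the genes upstream of Klf2 and Klf4, the kinase chain from Mekk3 through Mek5 to Erk5, the Mef2 factors, the complex that restrains the chain, and Foxo1, none of 13 genes was past 2-fold, and the median was 0.05. Map2k5, which encodes Mek5, was farthest below 0, at -0.53. Mef2d was at 0.48, Foxo1 at 0.48 and Map3k2 at 0.44. Klf2 and Klf4 are both under this chain, and they lay on opposite sides of 0. RNA levels do not measure the activity of the kinases, and the part of the chain in these differences was not tested.

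Of the TGF-beta pathway, which induces Klf10 and Klf11, 13 of 14 genes passed the background limit on 1 array or both, and 2 were higher and none lower. Both were ligands: Tgfb3 went from 16.7 to 61.7, a difference of 1.98, and Tgfb2 from 11.8 to 36.0, a difference of 1.70. These ligand signals were dim on the C array, and with the normexp background correction the differences were 0.74 and 0.48. The feedback genes Tgif1, at 0.68, and Skil, at 0.54, were nearest to 2-fold among the rest. The median of the pathway was 0.12.

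Of the corepressors, coactivators and ubiquitin ligases that act with Klf proteins, none of 12 genes was past 2-fold, and the median was 0.13. Smurf1, a ubiquitin ligase, was at 0.41, and Sin3a, the corepressor of the Klf10 group, at -0.39. Wwp1, another ubiquitin ligase, was at 0.26 and the deacetylase Hdac1 at 0.26.

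Lymphocyte homing and egress genes, several of which Klf2 is known to drive in T cells, included 2 higher and none lower of 9 genes. Their median was -0.25, below the 0.02 over all genes. Cxcr4, the receptor for Cxcl12, went from 604 in C to 1689.9 in RS, a difference of 1.58. Cd69, an activation antigen that holds S1pr1 inside the cell, went from 242 to 638, which is 2.83-fold. S1pr1, the egress receptor that Klf2 is known to drive, was at 0.13. S1pr4 was at -0.90 and Il7r, the receptor for the survival cytokine interleukin 7, at 0.97.

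Endothelial genes under Klf2 or Klf4 included 2 higher and none lower of 7 genes, with a median of 0.65. The list was not split by whether Klf2 or Klf4 raises or lowers a gene. Its count and median therefore do not give a direction of their effect. Thbd, the anticoagulant thrombomodulin that Klf2 and Klf4 are known to induce, went from 257 to 1065, a difference of 2.15. F3, the clotting initiator tissue factor, went from 160.3 to 457, a difference of 1.61. Sele and Icam1, which hold leukocytes to the vessel wall, were at 0.74 and 0.65, and Nos3, the nitric oxide synthase of endothelium, was at 0.59.

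Metabolic genes linked with Klf15 included 2 higher and none lower of 6 genes. Slc2a4, the insulin-dependent glucose transporter, was at 1.47 and Gpt, an alanine aminotransferase, at 1.02, whereas Klf15 itself was at -0.68. With the normexp background correction, Slc2a4 was at 0.42 and Gpt at 0.69. Ddit4, a glucocorticoid-induced inhibitor of mTOR, was at 0.77, and Fbxo32, a ubiquitin ligase of muscle wasting, at -0.36.

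Fat cell transcription factors that act beside Klf4, Klf5 and Klf15 included 3 higher and none lower of 8 genes. Cebpb, which Klf4 is known to induce early in fat cell formation, went from 438 to 1849, a difference of 2.18. Cebpd went from 962 to 2987, a difference of 1.73. Pparg, the main regulator of fat cells, which Klf5 is known to help induce, went from 115 to 374, a difference of 1.80. Rxra, the partner of Pparg, was at -0.65.

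**Figure D4:**
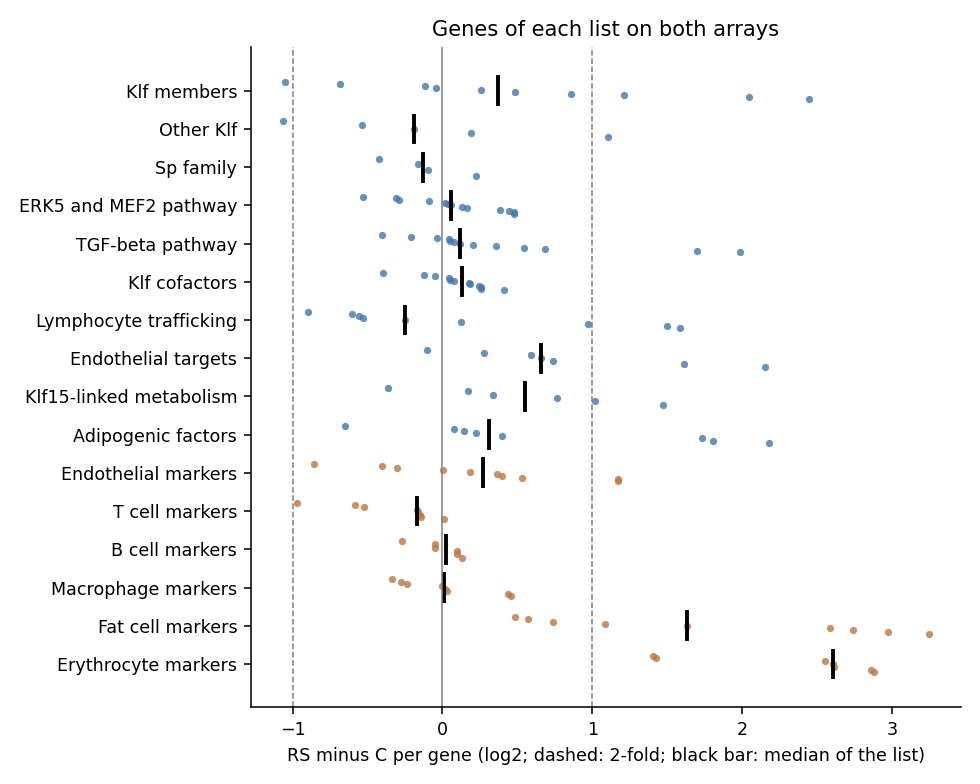
Difference between the arrays, RS minus C in log2 (x axis), of every gene well above background on at least 1 array in each list; each dot is a gene (blue for Klf, pathway and target lists, brown for cell type markers), black bars are medians and dashed lines mark 2-fold. The ERK5 and MEF2 pathway and the Klf cofactors stay under 2-fold, between the dashed lines, and the erythrocyte markers all lie past it, to the right.

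Markers of other cells differed between the arrays along with the Klf genes. All 7 erythrocyte markers that were well above background were 2-fold or more higher, with a median of 2.60, and their summed intensity was 10236 in C and 61657 in RS after scaling to the C array. Klf1, the factor of red cell formation, was at -0.54. Of 9 fat cell markers, 6 were higher and none lower, with a median of 1.63, and their sum was 9927 in C and 24592 in RS. Adipoq was at 2.74 and Lep at 3.24, whereas Plin1 was not well above background. The part of these cells in the differences of Klf4, Klf5, Klf10 and Klf15 was not tested.

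Of 10 endothelial markers, 2 were higher and none lower, and their sum was 5681 in C and 6124 in RS. The higher ones were Flt1 and Emcn, which were dim on the C array. Of the 10, 7 were above 0 and 3 below, with a median of 0.27. Vwf was at 0.53, Cldn5 at -0.86 and Cdh5 at -0.41, the last with a 95% spot error interval that held 0. None of 8 T cell markers was past 2-fold, but 7 were below 0, with a median of -0.17. Cd5 was lowest at -0.97, followed by Lck at -0.58, whereas the 95% spot error intervals of Cd3e, Cd3d, Cd3g and Zap70 held 0. The sum of the T cell markers was 34731 in C and 31083 in RS. The part of endothelial cells and T cells in the lower Klf2 signal was not tested.

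Of 6 neutrophil markers, 2 were higher, S100a8 at 3.99 and S100a9 at 3.78, and the sum of the 6 was 156 in C and 894 in RS. Without S100a8 and S100a9, the sum of the other 4 was 101 in C and 89.9 in RS. Of these, Ltf was at -0.97, Fpr1 at -0.13 and Csf3r at 0.11, and Cxcr2 passed the background limit in RS only, at 0.73. Mpo and Elane passed it on neither array. None of 6 B cell markers and 8 macrophage markers was past 2-fold, with medians of 0.02 and 0.01, so both lists of cells that belong to a lymph node were well above background on both arrays at like levels. Smooth muscle markers had a median of 0.63, with none of 5 past 2-fold. Skeletal muscle, epithelial and salivary gland markers had medians of 0.01, -0.15 and -0.30, with none past 2-fold of the 4, 4 and 1 genes read.

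To show the sequence before the start of the genes that were higher, promoters were taken from RefSeq on assembly GRCr8, which held 7 of the 10 genes and had no entry for Klf2, Klf10 and Klf13. For Klf5 and Klf6 the window of 250 bases before the start lay wholly outside the gene, and these windows are printed because both genes were higher on the RS array. The Klf5 window is chr15:82471831-82472080 on the forward strand, with the CRE core TGACG in capitals, which lies on the opposite strand 23 to 27 bases before the start. The Klf6 window is chr17:69458479-69458728 on the reverse strand, with its CArG box, the site of serum response factor, in capitals, 192 to 201 bases before the start.
Klf5 promoter: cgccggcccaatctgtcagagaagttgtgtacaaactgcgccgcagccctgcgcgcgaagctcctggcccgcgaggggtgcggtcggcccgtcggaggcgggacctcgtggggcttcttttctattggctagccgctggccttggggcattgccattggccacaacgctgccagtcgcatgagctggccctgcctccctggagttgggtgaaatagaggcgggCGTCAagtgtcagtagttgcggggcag
Klf6 promoter: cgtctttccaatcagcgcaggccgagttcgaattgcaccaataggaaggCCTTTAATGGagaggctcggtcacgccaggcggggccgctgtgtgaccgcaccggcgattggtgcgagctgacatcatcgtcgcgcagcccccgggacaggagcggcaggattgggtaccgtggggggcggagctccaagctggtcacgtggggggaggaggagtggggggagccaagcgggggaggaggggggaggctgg
The windows of Klf3, Klf4, Klf7, Klf11 and Klf15 overlapped the annotated gene. For these genes, a match or its absence does not describe the sequence upstream of the whole gene. Searched on both strands, the CRE core was in 2 of the 7 Klf windows (Klf5 and Klf15) and in 19.0% of 27457 promoters. The CArG box was in 1 of 7 and in 1.5%. The GT box CACCC was in 4 of 7 and 49.4%, and the GC box GGGCGG in 3 of 7 and 32.4%. None of the 7 held the AP-1 site TGANTCA (6.36% of promoters), the core AGAACA of the glucocorticoid response element (17.1%) or the MEF2 site (1.74%). Each motif was searched on its own, so that matches of different motifs may share bases, and a match describes letters in the window only.

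The differences of the 10 genes were computed under 14 other ways of processing. Those that change only the threshold, the background filter or the bound could not move these values, since all 10 genes were measured on both arrays. In the plot of these values, Klf4, Klf5 and Klf10 stayed past 2-fold higher under each of them. Klf2 stayed below 0 under each, between -1.15 and -0.91, and left the 2-fold threshold with the normexp background correction. Klf15 stayed below 0, between -0.78 and -0.37. Klf6 stayed between 0.72 and 0.88, under 2-fold throughout.

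**Figure D5:**
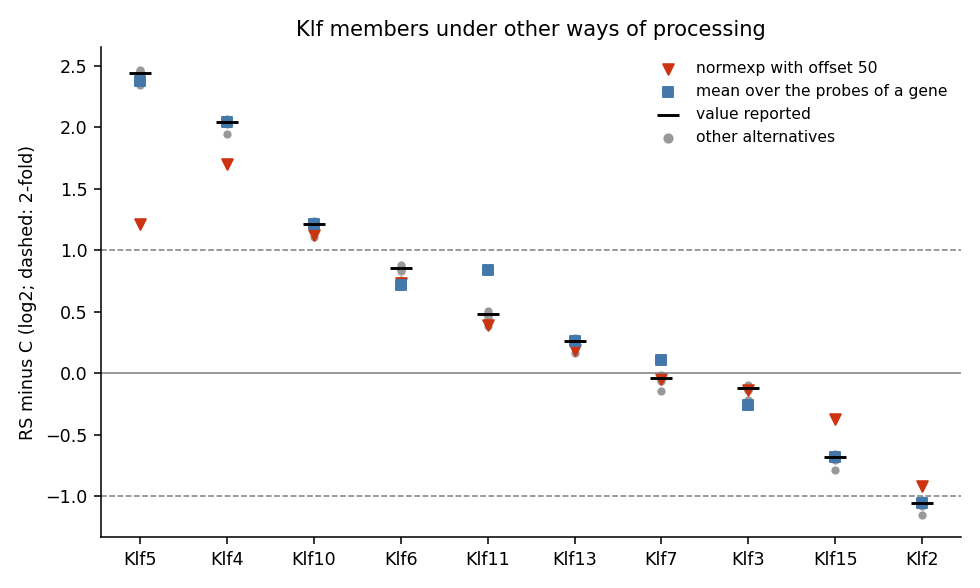
Difference between the arrays, RS minus C in log2 (y axis), for each Klf gene (x axis) as reported (black bar) and under other ways of processing (red triangle, normexp background correction; blue square, mean over the probes of a gene; gray, the rest); dashed lines mark 2-fold. Klf5 moves most, from 2.44 to 1.22 with normexp, and Klf2 crosses the lower dashed line there.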

How the data were processed

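RNA was hybridized by the authors to 60-base Agilent SurePrint G3 Rat GE arrays, labeled with Cy3 and read in 1 color, and spots were extracted with Feature Extraction 11.5.1.1 (submitters' processing notes). The authors deposited the processed intensity of each spot, background-subtracted and not normalized between arrays, and a table of log2 values per probe; 100% of these lay within 0.1 of log2 intensity minus the 75th percentile computed here, with column medians of -3.51 (C) and -3.54 (RS). An array held 62976 spots, 58717 of them noncontrol; 489 (C) and 660 (RS) outlier spots were left out, none on a Klf probe, and none was saturated. From the deposited intensities, the mean log2 value over the spots of a probe was taken and each array was shifted by its 75th percentile over probes, following the study's methods. A probe was well above background where the software marked over 50% of its spots so, which held for 54.7% (C) and 54.9% (RS) of probes. A gene took its probe with the highest mean signal and was screened if well above background on at least 1 array. Where it was so on 1 array only, the fold is a lower bound against the lowest such signal on the other (intensity 9.45 on C, 8.52 on RS). Where the dimmer signal itself lay above that lowest signal, the fold is the plain ratio and not a bound. The threshold was 2-fold, as in the study's methods.

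The Klf genes and all gene lists were chosen with earlier results of these data known. The text names every Klf gene described with all probes, every other Klf and Sp gene above background, and from each list up to 4 genes with the largest differences measured on both arrays plus those past 2-fold; S1pr1, Nos3, Csf3r, Cxcr2 and genes not above background were added after their values were seen, and some genes are not reported here and were left out of their lists. Accessions of 14 of 17 Klf probes were in the RefSeq table of assembly GRCr8, each with the same symbol. The steps were run on simulated arrays of 20366 genes, where 200 of 200 changed genes were recovered and 0 others called. Both simulated arrays were made from the C array, with noise set below the spot error. Only brighter genes were changed, by folds well past the threshold. The run therefore checks the computation only, and not dim genes, genes near the threshold or differences between rats. Python 3.11.15 with numpy 2.4.6, pandas 2.3.3 and matplotlib 3.10.9, and R 4.3.3 with limma 3.58.1 for the normexp correction (offset 50), were used.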

Additional observations from a re-analysis of the deposited data

How the results depend on the processing

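No paired analysis was possible because there was only 1 array for C and 1 for RS, and none could be left out. Of 139 values of the 10 Klf genes under 14 alternatives, 135 moved by less than 1 spot error and 4 by more. With the normexp background correction (offset 50) Klf4 was at 1.70, Klf5 at 1.22 and Klf15 at -0.37. With the mean over probes Klf11 was at 0.84. Alternatives that change only the threshold, the background filter or the bound could not move these genes. The 135 therefore include values that were fixed in advance. Klf7 changed sign once, to 0.11, with the mean over probes, and Klf13 had no value without probes holding alternating A and G runs. With normexp, which lowers differences of dim probes by construction, 0 Klf genes described here were 2-fold lower, 0 other Klf and Sp genes passed 2-fold, and of all genes 234 were higher and 378 lower, against 730 and 903. With no background filter, 4 other Klf and Sp genes passed, and 2031 genes were higher and 2148 lower. Genes measured on both arrays alone gave 601 lower, and leaving out alternating A and G probes gave 498 lower with 716 higher, or 59.0% of the calls higher against 44.7%; the cause was not tested. At 1.5-fold, 2 of the 10 Klf genes were lower, and 1681 genes were higher and 1784 lower. The C signal of Klf5 was dim, and with 1 array per group no value here has an error that covers differences between rats.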
